A study of Mus musculus with 6 samples.

Results

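The core autophagy machinery was examined as 39 genes of the mouse genome, taken by gene name from the 34709 genes measured by RNA-seq in articular cartilage. Autophagy is the route by which a cell encloses cytoplasm, damaged mitochondria or other cargo in a double membrane, the autophagosome, and delivers it to the lysosome. A kinase complex built on Ulk1 or Ulk2 starts the process, a lipid kinase complex around Pik3c3 and Becn1 marks the site with phosphatidylinositol 3-phosphate, and lipid transfer proteins and scramblases supply membrane. Conjugation enzymes related to those of ubiquitin then attach the Atg8 proteins (the LC3 and GABARAP families) to phosphatidylethanolamine in that membrane, and SNARE proteins fuse the closed vesicle with the lysosome. In cartilage, autophagy is known as a housekeeping process of long-lived chondrocytes that declines with age. The genes fell into 5 of initiation, 6 of nucleation, 9 of membrane supply, 11 of the conjugation enzymes, 5 Atg8 proteins and 3 of fusion.

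Both groups were aged 18 months and were, per the study's methods, male littermates: 3 libraries came from knockout (KO) mice and 3 from wildtype mice. The sources used here name no tissue-specific promoter or Cre for the deletion, and the labels did not say whether a library held 1 mouse or a pool. Levels are given as FPKM (fragments per kilobase, corrected for the size of the library), which allows genes of unequal length to be compared, and differences are log2 ratios, KO minus wildtype, from TMM-scaled counts (TMM is a scaling that takes most genes as unchanged). KO replicates 2 and 3 were much closer to each other than any other pair of libraries, and they were counted as 1 sample by their mean, called the merged KO pair here. Means therefore carry an SD over 2 KO samples and 3 wildtype samples, and a gene was called at an adjusted p under 0.05 in edgeR's quasi-likelihood test. The study's methods describe its samples as independent, but the labels do not tie libraries to separate animals, so p-values measure the spread between these samples, which may be technical.

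Total counts ranged from 52268311 to 63331135 per library, and each autophagy gene had between 208 and 17054 counts in every library, so that all 39 passed the filter of 0.5 FPKM. In a principal component analysis KO replicate 1 lay with the wildtype libraries on the first component, at −24.6 against −26.2 to −23.9, while the libraries of the merged KO pair lay at 50.7 and 49.6. Markers of neutrophils and erythroid cells far exceeded those of chondrocytes. The summed FPKM of 11 chondrocyte markers was 633.9 to 1437 in KO and 609.7 to 830.9 in wildtype libraries. Over the 6 libraries Prg4 ran from 402 to 1034 FPKM, Chad from 70.3 to 230, Comp from 41.0 to 109 and Col2a1 from 12.4 to 21.3. Col9a1 lay at 0.048 to 0.46 FPKM, and Matn3, also a cartilage matrix gene, was listed at 0 in 3 of the 6 libraries. The 11 neutrophil markers summed to 50940 to 62340 FPKM in KO libraries and 26990 to 43710 in wildtype, with 7 of 11 higher at an unadjusted p under 0.05. The 11 B cell markers summed to 93.3 to 145.1 against 295.0 to 331.1 FPKM, the 10 erythroid markers in the table to 24980 to 60730 against 71740 to 108600, the 7 adipocyte markers to 30.4 to 57.6 against 88.6 to 190.8, and the 8 osteoclast markers to 571.6 to 769.5 against 705.2 to 1510, where the groups overlapped. Over all tested genes, 7.63% were higher and 6.07% lower in KO at that limit. Of the tested markers, 11 of 11 B cell and 5 of 10 erythroid genes were lower. So were 6 of 6 adipocyte, 3 of 8 osteoclast, 2 of 7 endothelial and 2 of 9 macrophage genes. Of 7 T and NK cell genes, 2 were lower and 1 higher. No tested chondrocyte, skeletal muscle, or osteoblast and osteocyte marker passed that limit. The marker shifts run with genotype through every comparison given here, and their part in the autophagy values was not tested. The 8 skeletal muscle markers summed to 186.9, 4.37 and 3.57 FPKM in the KO libraries and to 36.9 to 340.8 FPKM in wildtype libraries, so they varied widely within both groups. In such bulk tissue fewer cells of a type and less RNA per cell cannot be told apart.

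The 3 genes past an unadjusted p of 0.05 were all conjugation genes, though none was called: Atg7, the E1-like enzyme that activates both Atg12 and the Atg8 proteins; Atg3, the E2-like enzyme that hands Atg8 proteins to the lipid; and Atg4a, a cysteine protease that trims Atg8 proteins and releases them from the lipid. By the GRCm38 positions of the deposited table, Atg7 spans chr6:114643097-114860614, Atg3 chr16:45158785-45188538 and Atg4a chrX:140956907-141164270, all on the plus strand. The bases before Atg3 and Atg4a are shown because the estimates of these genes had opposite signs and a RefSeq start lies at or near their start in the table, at the same base for Atg4a and 44 bases further in for Atg3. They come from RefSeq on GRCm38.p6, on the plus strand, at chr16:45158579-45158784 for Atg3 and chrX:140956657-140956906 for Atg4a. Capitals mark CACGTG, the E-box core read by MiT/TFE factors such as Tfeb and by many other basic helix-loop-helix factors.
Atg3: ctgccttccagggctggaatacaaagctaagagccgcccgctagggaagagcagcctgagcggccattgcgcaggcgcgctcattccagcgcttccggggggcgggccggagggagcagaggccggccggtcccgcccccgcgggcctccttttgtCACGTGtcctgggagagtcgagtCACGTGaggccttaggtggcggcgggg
Atg4a: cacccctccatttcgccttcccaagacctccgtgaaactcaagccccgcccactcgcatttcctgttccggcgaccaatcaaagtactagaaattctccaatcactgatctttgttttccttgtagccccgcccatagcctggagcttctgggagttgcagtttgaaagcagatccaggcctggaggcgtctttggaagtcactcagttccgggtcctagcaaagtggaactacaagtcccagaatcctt
The Atg3 stretch held CACGTG at 2 places, beginning 50 and 27 bases before the gene's start, and the Atg4a stretch held none. Of the autophagy genes, 31 had an entry in the RefSeq promoter table, with 35 starts. CACGTG, which reads the same on both strands, stood in the 250 bases before 3 of these 35 starts (8.57%; Atg3, Atg5 and Atg7), against 6.02% of 32851 starts in the whole table. The median share of G and C in these windows was 59.6% for the 35 starts and 52.4% for all, and its part was not tested. The table's only Atg7 entry lies 27999 bases inside the gene as the deposited table has it, so its sequence is not shown. The longer CLEAR motif of lysosomal genes, which is CACGTG with GT before and AC after it, was in none of the 35 and in 0.24% of all starts. Only its exact 10 letters were searched. Both Atg3 sites have GT before but not AC after them. TC follows the site beginning 50 bases before the start, and AG follows the site beginning 27 bases before it. The FOXO motif GTAAACA, searched on both strands, was in none and in 3.17% of all. These are matches of letters in a window and say nothing of binding.

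The level of Atg3 was 28.9, 34.3 and 30.4 FPKM in KO replicates 1, 2 and 3, and 23.3, 23.1 and 22.2 FPKM in wildtype replicates 1, 2 and 3. Every KO library lay above every wildtype library. The log2 difference was 0.44 (SE 0.11), with an adjusted p of 0.186 in edgeR's test. Atg7 was measured at 7.42, 8.84 and 8.41 FPKM in the KO libraries and at 5.49, 5.44 and 5.90 FPKM in the wildtype libraries. Again the groups did not overlap, and Atg7 had the largest difference of the 39 genes, 0.53 (SE 0.12, adjusted p = 0.171 by edgeR). Atg4a went the other way, with 17.4, 15.4 and 15.5 FPKM in KO against 23.1, 22.0 and 25.3 FPKM in wildtype libraries. Its log2 difference was −0.49 (SE 0.14, adjusted p = 0.213 by edgeR), the lowest of the 39, and the lowest wildtype library exceeded the highest KO library.

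**Figure D1:**
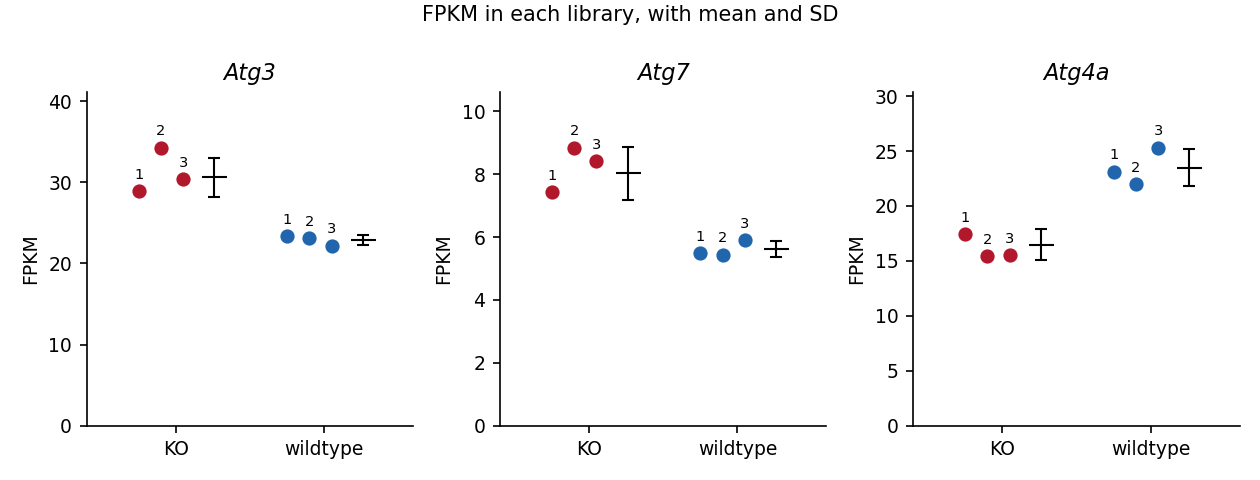
FPKM of Atg3, Atg7 and Atg4a (y axes, from 0) in KO and wildtype libraries. Numbered points are single libraries, and the bar beside each group is the mean with SD (KO n = 2 after replicates 2 and 3 were merged, wildtype n = 3); Atg3 and Atg7 lie higher and Atg4a lower in all 3 KO libraries than in any wildtype library.

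With 2 against 3 samples none of the 39 genes was called, as none of the 15373 genes tested was (0% called). At an unadjusted p under 0.05 these 3 genes passed, 2 higher and 1 lower in KO, or 7.69% of the 39. Over all tested genes 13.7% passed that limit, 7.63% higher and 6.07% lower, so the share among the autophagy genes was below the background. When the 6 libraries were instead taken as labelled, 3 against 3, the same 3 genes were called, Atg7 at an adjusted p of 0.036, Atg3 at 0.044 and Atg4a at 0.047 by edgeR. That fit called 7.69% of the 39 and 3.71% of all genes, 2.46% higher and 1.25% lower. The share among the 39 was thus above the background there, though it rests on 3 genes. The fit treats the nearly identical libraries of the merged KO pair as independent. DESeq2 on the 2 against 3 samples called 2 of the 39, Atg3 and Atg7, and 6.07% of the genes to which it gave an adjusted p, so that the 39 were not above the background. For each of the 3, KO replicate 1 alone and the merged KO pair alone had the same sign. These genes were picked by p in the same data, and their FPKM groups did not overlap. The agreement was thus largely fixed beforehand and adds no support. Against wildtype, KO replicate 1 alone gave 0.42 for Atg3, 0.48 for Atg7 and −0.35 for Atg4a, and the merged KO pair alone gave 0.46, 0.58 and −0.64; both comparisons share the wildtype libraries.

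The machinery as a whole lay close to zero difference. The 39 log2 differences ran from −0.49 to 0.53, with 22 above and 17 below 0 and a median of 0.037, beside a median of −0.016 over all tested genes. The sign of that median depended on the fit, at −0.001 with limma on log2(FPKM + 1) and −0.008 without wildtype replicate 2. The median size, regardless of sign, was 0.137 for the autophagy genes and 0.200 for all genes. No member differed by more than 1 on the log2 scale, whereas 3.56% of all tested genes did, and 16.7% of all tested genes differed by more than Atg7. Standard errors ran from 0.112 to 0.279. The 95% interval lay within 2-fold in either direction for all 39 genes and within 1.5-fold for 29 of them. The summed FPKM of the 39 genes was 548.6, 544.8 and 545.7 in the KO libraries and 536.0, 535.8 and 549.5 in the wildtype libraries, so the highest library was a wildtype one.

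**Figure D2:**
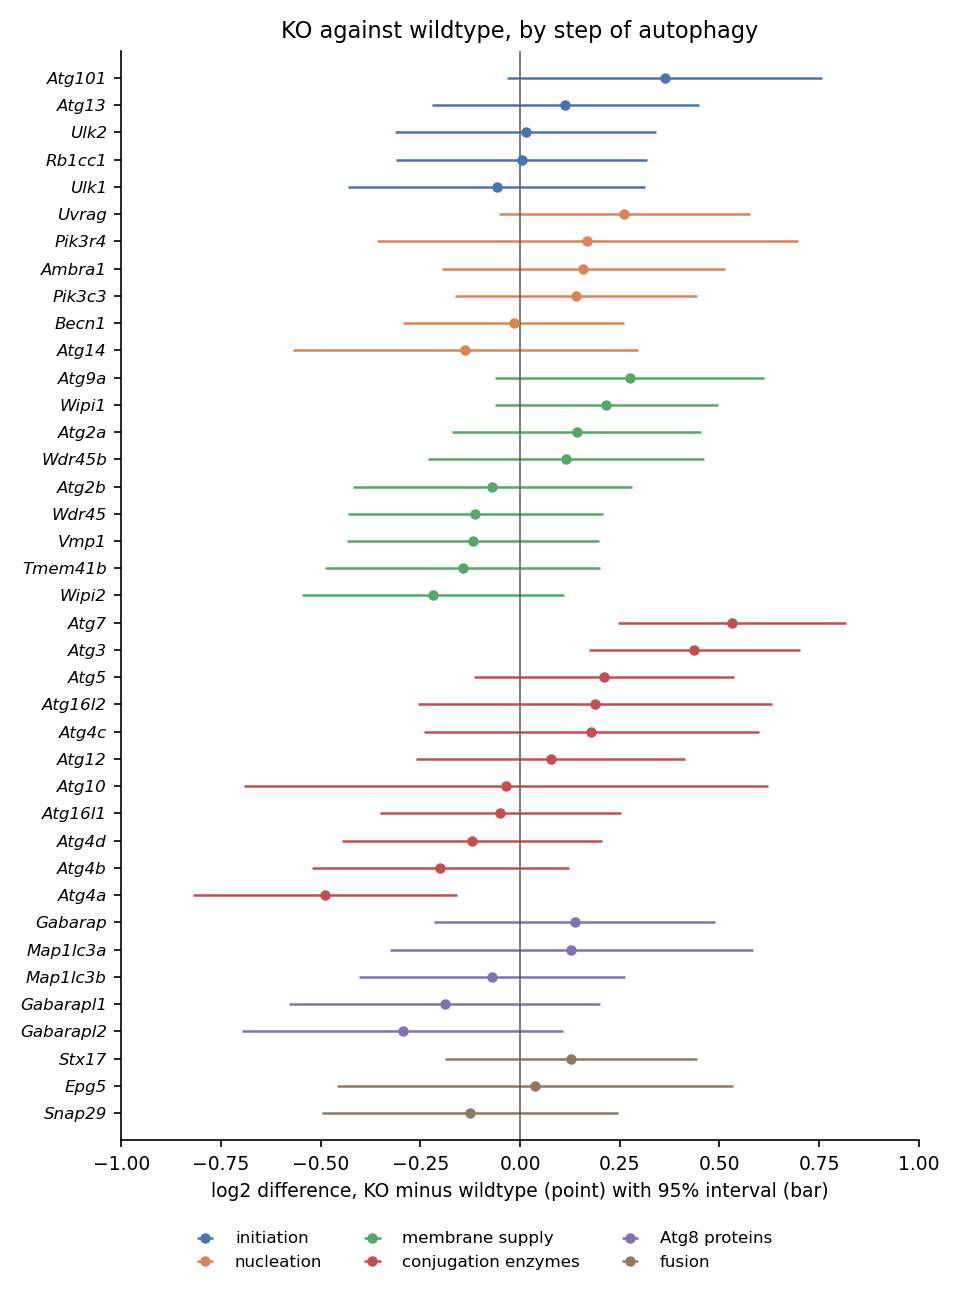
Log2 difference between KO and wildtype (x axis; positive is higher in KO) for each of the 39 genes, ordered within its step. Points are estimates from edgeR on 2 KO and 3 wildtype samples, and bars are 95% intervals; only the bars of Atg7, Atg3 and Atg4a do not cross 0.

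FPKM ranges that did not overlap between the 3 KO and the 3 wildtype libraries were found for 11 of the 39 genes (28.2%). Of these, 6 were higher in KO (Atg3, Atg7, Atg5, Atg101, Wipi1 and Uvrag), beside a background of 11.3% of all genes. The other 5 were lower in KO (Atg4a, Atg4b, Gabarapl1, Gabarapl2 and Wipi2), beside 13.7% of all genes. As 15.4% and 12.8% of the 39, these shares lie near the background on both sides. The ranges are of FPKM without TMM scaling, whose factors ran from 0.944 (KO replicate 1) to 1.05 (wildtype replicate 1), so overlap can depend on the scale. On TMM-scaled counts KO replicate 1 alone gave 0.040 against wildtype for Gabarapl1, the only one of the 11 whose sign then differed from its FPKM direction.

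Levels differed far more between genes than between genotypes. Gabarap was the most abundant, with a mean over the 6 libraries of 131 FPKM, followed by Gabarapl2 at 35.3, Vmp1 at 29.9, Atg3 at 27.0 and Gabarapl1 at 26.7 FPKM. The lowest were Pik3r4 at 1.83, Atg10 at 2.16 and Atg14 at 2.93 FPKM. The 4 genes that followed Gabarap, Gabarapl2 to Gabarapl1, were not separable from their neighbours in that order, since their ranges over libraries overlapped. Gabarap stood above all others in every library.

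**Figure D3:**
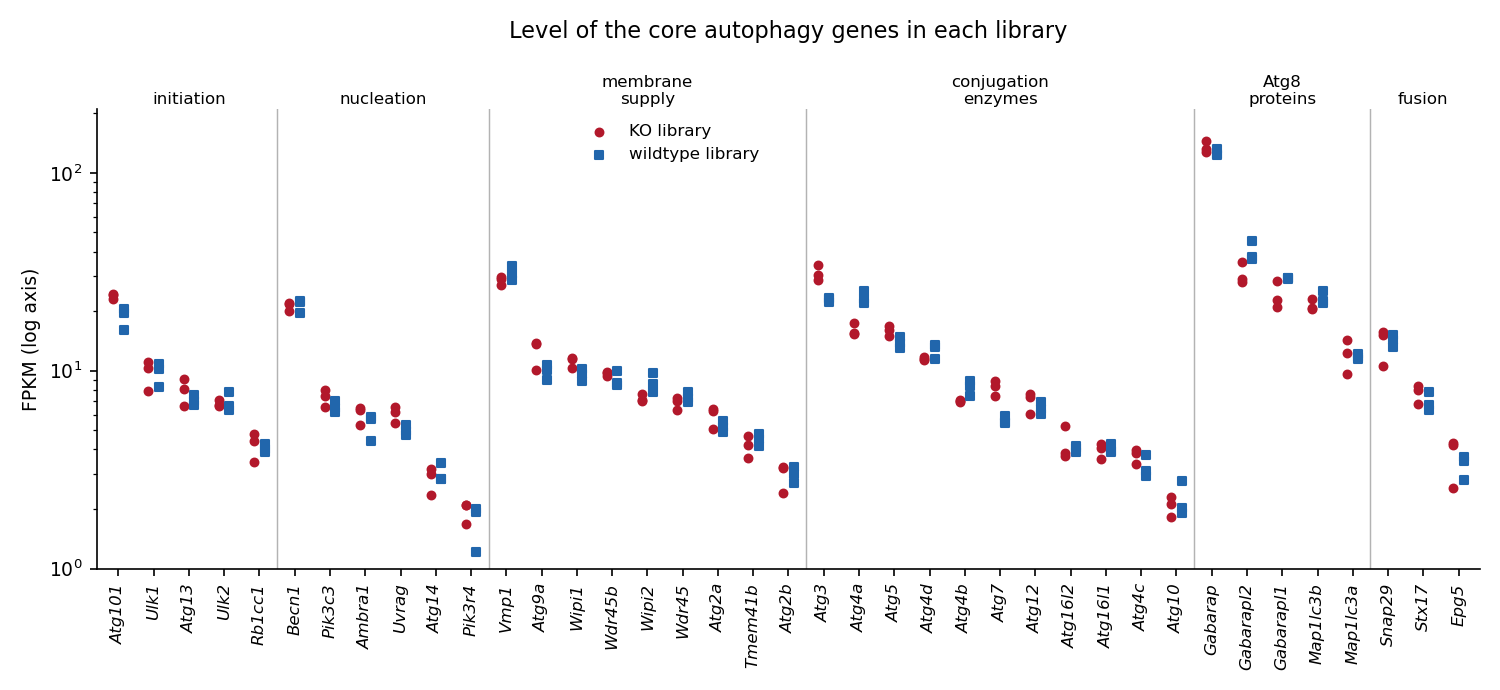
FPKM (y axis, log scale) of the 39 genes in each KO library (circles) and wildtype library (squares), grouped by step and ordered by mean level. Gabarap lies near 131 FPKM and Pik3r4 near 1.83 FPKM, and the libraries of the groups mostly overlap within a gene.

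Of the initiation genes, Atg101, a subunit that stabilizes Atg13 in the Ulk complex, was the most abundant and had the largest difference. It was measured at 24.4, 22.9 and 24.0 FPKM in KO and at 16.1, 20.6 and 19.7 FPKM in wildtype libraries, and the groups did not overlap. Its log2 difference of 0.36 (SE 0.17) had an adjusted p of 0.410 in edgeR. The remaining members lay nearer to 0. Rb1cc1 (FIP200), the scaffold of the complex and its lowest member, was at 3.46, 4.80 and 4.43 FPKM in KO and 4.25, 3.90 and 4.04 FPKM in wildtype libraries, with a difference of 0.00415. Here KO replicate 1 was the lowest and KO replicate 2 the highest of all 6. The kinase Ulk1 had 9.30 ± 1.99 FPKM in KO (SD, n = 2) and 9.79 ± 1.35 in wildtype (SD, n = 3), a difference of −0.059. Its paralog Ulk2 had 6.87 ± 0.32 and 6.92 ± 0.76 FPKM, a difference of 0.014, and the adaptor Atg13 had 7.59 ± 1.35 and 7.09 ± 0.45 FPKM, a difference of 0.11. The sign of Ulk1 and Ulk2 changed with the choice of fit, and the median of the 5 genes, 0.014, became 0.148 without KO replicate 1.

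In the nucleation complex, 4 of 6 estimates were above 0 and the median was 0.149, the highest of the steps, or 0.029 without wildtype replicate 2. Becn1, the regulatory subunit, led in level, with 20.0, 22.0 and 21.7 FPKM in KO and 22.5, 19.7 and 22.2 FPKM in wildtype libraries. The groups overlapped almost fully and the log2 difference was −0.016. Pik3r4, the Vps15 subunit that holds the lipid kinase, was the lowest, with 1.69, 2.10 and 2.08 FPKM in KO and 1.99, 1.21 and 1.92 FPKM in wildtype libraries. Wildtype replicate 2 was low for it, and without that library its estimate of 0.17 became −0.008. Uvrag, which with Becn1 forms the complex of later endosomal steps, had 5.92 ± 0.64 FPKM in KO (SD, n = 2) and 4.99 ± 0.29 in wildtype (SD, n = 3), a difference of 0.26 (SE 0.13) with an adjusted p of 0.463 in edgeR. Atg14, the subunit that directs the complex to autophagosome formation in place of Uvrag, leaned the other way, with 2.72 ± 0.51 and 3.02 ± 0.35 FPKM and a difference of −0.14. The kinase subunit Pik3c3 had 7.14 ± 0.79 and 6.55 ± 0.41 FPKM (0.14), and Ambra1, which links Becn1 to upstream signals, 5.86 ± 0.77 and 5.32 ± 0.77 FPKM (0.16).

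The membrane supply genes were split, with 4 estimates above and 5 below 0 and a median of −0.070 that became 0.054 without KO replicate 1. Vmp1, a scramblase of the endoplasmic reticulum, was the most abundant, at 27.2, 28.9 and 29.9 FPKM in KO and 30.8, 33.7 and 28.6 FPKM in wildtype libraries, and the groups overlapped. Its functional partner Tmem41b had 4.03 ± 0.59 FPKM in KO (SD, n = 2) and 4.50 ± 0.31 in wildtype (SD, n = 3), and both scramblases had estimates below 0, −0.12 and −0.14. The scramblase of the Atg9 vesicles, Atg9a, had 11.9 ± 2.55 and 9.92 ± 0.87 FPKM and a difference of 0.27 (SE 0.14; adjusted p = 0.471 by edgeR). The merged KO pair stood at 13.8 and 13.6 FPKM, whereas KO replicate 1, with 10.1 FPKM, fell between the lowest wildtype library at 8.96 and the highest at 10.7. A transcript on the same strand, Gm29253, overlaps Atg9a over 4287 bases and was itself at 3.60 to 4.52 FPKM in KO libraries but at 0.27, 3.95 and 0.25 FPKM in wildtype libraries, and how the counting divided the reads of this pair was not given in the sources used here.

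The lipid transfer proteins Atg2a and Atg2b, which bridge the endoplasmic reticulum and the growing membrane, had opposite signs. Atg2a had 5.71 ± 0.89 FPKM in KO (SD, n = 2) and 5.22 ± 0.35 in wildtype (SD, n = 3), a difference of 0.14. Atg2b, the lowest of this step, was at 2.40, 3.28 and 3.22 FPKM in KO and 3.28, 2.70 and 3.02 FPKM in wildtype libraries, a difference of −0.070. The share of Atg2a in the summed FPKM of both was 65.6% to 67.9% in KO and 61.4% to 64.9% in wildtype libraries, so the shares did not overlap. Among the phosphoinositide-binding WIPI proteins, Wipi1 and Wipi2 also differed in sign. Wipi1 had 10.9 ± 0.83 against 9.53 ± 0.66 FPKM (0.22, SE 0.12), and Wipi2, which recruits Atg16l1, had 7.35 ± 0.44 against 8.69 ± 0.94 FPKM (−0.22, SE 0.14), neither called in edgeR. Wipi1 made up 30.4% to 33.1% of the summed WIPI FPKM in KO and 26.4% to 29.1% in wildtype libraries, and Wipi2 19.8% to 22.5% against 23.4% to 27.5%. Shares of 1 sum depend on each other, and neither the Atg2 nor the WIPI shares were tested. Shares of other paralogs overlapped between KO and wildtype libraries. Ulk1 made up 52.7% to 62.3% against 56.6% to 62.0% of the Ulk sum. Atg16l1 made up 40.5% to 52.5% against 48.6% to 52.4% of the Atg16 sum. Wdr45 (WIPI4) had 6.72 ± 0.60 and 7.35 ± 0.43 FPKM (−0.11), and Wdr45b (WIPI3) 9.65 ± 0.04 and 9.02 ± 0.81 FPKM (0.11). The summed WIPI level of 33.99 to 35.7 FPKM in KO and 33.6 to 35.3 FPKM in wildtype libraries overlapped.

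Of the 11 conjugation enzymes, 6 estimates were above and 5 below 0, with a median of 0.077 that became 0.004 without KO replicate 1 and 0.132 without wildtype replicate 2, and this step held all 3 genes past an unadjusted p of 0.05. The route from Atg7 runs through a pair of E2-like enzymes. Atg3 was among the genes with higher KO levels, while Atg10, the E2-like enzyme for Atg12 and the lowest of the step, was at 2.30, 2.12 and 1.83 FPKM in KO and 2.78, 2.03 and 1.903 FPKM in wildtype libraries. Its difference of −0.034 had the widest SE of the 39, 0.28. Atg5, to which Atg12 is joined, had 15.9 ± 0.10 FPKM in KO (SD, n = 2) and 13.9 ± 0.89 in wildtype (SD, n = 3), a difference of 0.21 (SE 0.14; adjusted p = 0.594 by edgeR) with ranges that did not overlap. The ubiquitin-like Atg12 had 6.76 ± 1.07 and 6.46 ± 0.45 FPKM (0.077). Atg16l1, which brings the Atg12 and Atg5 conjugate to the membrane, had 3.86 ± 0.42 and 4.03 ± 0.20 FPKM (−0.050). Its paralog Atg16l2 had 4.51 ± 1.02 and 4.03 ± 0.16 FPKM (0.19), with 5.23 FPKM in KO replicate 1 but 3.85 and 3.72 FPKM in the merged KO pair.

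The summed FPKM of the 4 Atg4 proteases was 39.7, 37.6 and 37.8 in KO and 45.9, 46.4 and 50.7 in wildtype libraries, and the groups did not overlap, though this sum was not tested and Atg4a was its largest part. Atg4a made up 44.0%, 40.9% and 41.0% of that sum in KO and 50.4%, 47.4% and 49.9% in wildtype libraries. The shares of Atg4d (29.5% to 30.3% in KO, 25.1% to 28.4% in wildtype) and Atg4c (8.53% to 10.5% against 6.11% to 8.19%) were higher in KO, and those of Atg4b overlapped. As parts of 1 sum these shares depend on each other, and they were not tested. Atg4b, generally regarded as the main processing enzyme of LC3, had 7.05 ± 0.10 FPKM in KO (SD, n = 2) and 8.21 ± 0.67 in wildtype (SD, n = 3), a difference of −0.20 (SE 0.14; adjusted p = 0.610 by edgeR). Atg4d had 11.5 ± 0.24 and 12.7 ± 1.07 FPKM (−0.12), and Atg4c 3.64 ± 0.37 and 3.26 ± 0.44 FPKM (0.18). Estimates for 3 of the 4 proteases were thus below 0, but only Atg4a passed an unadjusted p of 0.05. Atg4d shares 4316 bases with Kri1 on the opposite strand, which was at 7.22, 13.2 and 12.9 FPKM in KO and 8.84, 5.57 and 6.91 FPKM in wildtype libraries. The libraries kept strand, but whether the counting used it was not given in the sources used here. Other members share bases with protein-coding genes on the opposite strand, among them Atg16l2 (Fchsd2, 21372 bases), Becn1 (Cntd1, 10366) and Atg4b (Thap4, 3365). Atg7 holds pseudogenes on its own strand, with Gm19040 the longest at 4726 bases.

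The Atg8 proteins, the ubiquitin-like tags of the autophagosome, took the largest share of the machinery, with a summed FPKM of 246.5, 210.8 and 212.4 in KO and 224.2, 232.8 and 236.3 in wildtype libraries. Gabarap was at 145.4, 128.0 and 131.4 FPKM in KO and 123.7, 132.4 and 124.9 FPKM in wildtype libraries, with overlapping groups and a difference of 0.14 (SE 0.15). Gabarapl2 (GATE-16) was at 35.3, 28.9 and 27.9 FPKM in KO and 36.8, 37.4 and 45.2 FPKM in wildtype libraries. Its groups did not overlap, yet the difference of −0.29 (SE 0.17) had an adjusted p of 0.531 in edgeR. Gabarapl1 was at 28.5, 21.1 and 22.8 FPKM in KO and 29.0, 29.4 and 29.4 FPKM in wildtype libraries. In FPKM, KO replicate 1 lay just under the lowest wildtype library and the merged KO pair well under it. The log2 difference was −0.19 (SE 0.17), and KO replicate 1 alone gave 0.040 on TMM-scaled counts.

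The median of the 5 differences was −0.071, with −0.209 in the merged KO pair alone and 0.062 in KO replicate 1 alone. Of the LC3 genes, Map1lc3b, the LC3 most used as a marker of autophagosomes, was at 23.0, 20.5 and 20.7 FPKM in KO and 22.5, 22.1 and 25.1 FPKM in wildtype libraries, a difference of −0.071 (SE 0.14). The gene Gm20388 spans Map1lc3b on the same strand, but the deposited table has no row under that name. How reads of this stretch were assigned was not given in the sources used here, so the values of Map1lc3b are uncertain. Map1lc3a was at 14.3, 12.3 and 9.60 FPKM in KO and 12.1, 11.5 and 11.7 FPKM in wildtype libraries, with the highest and the lowest library both in the KO group, a difference of 0.13 (SE 0.19). As shares of the family, Gabarap made up 59.0% to 61.8% in KO and 52.8% to 56.9% in wildtype libraries, Gabarapl2 13.2% to 14.3% against 16.1% to 19.1%, and Gabarapl1 10.003% to 11.6% against 12.5% to 12.9%. These 3 shares did not overlap between the groups, while those of Map1lc3a and Map1lc3b did; shares of 1 sum depend on each other and were not tested.

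**Figure D4:**
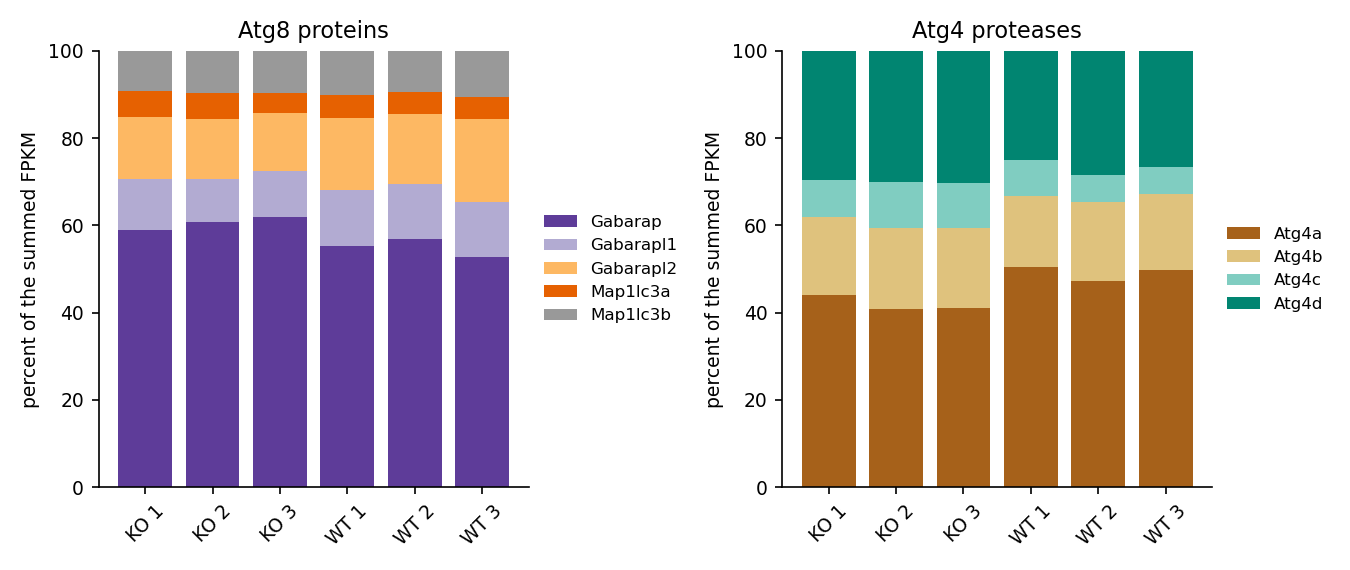
Share of each gene in the summed FPKM of the Atg8 proteins (left) and the Atg4 proteases (right), in percent, for each of the 6 libraries. Gabarap takes 59.0% to 61.8% in KO and 52.8% to 56.9% in wildtype libraries, and Atg4a 40.9% to 44.0% in KO and 47.4% to 50.4% in wildtype libraries.

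The 3 fusion genes differed more between KO libraries than between the means of the groups. Snap29, the SNARE that pairs with Stx17, was at 10.6, 15.6 and 15.1 FPKM in KO and 15.2, 13.2 and 14.3 FPKM in wildtype libraries, so the lowest and the highest library were both KO. Epg5, a tether that promotes assembly of that SNARE complex and the lowest of the step, was at 2.54, 4.31 and 4.20 FPKM in KO and 3.52, 2.81 and 3.68 FPKM in wildtype libraries. The same library, KO replicate 1, was again the lowest. Stx17, the SNARE of the completed autophagosome, had 7.47 ± 0.995 FPKM in KO (SD, n = 2) and 6.92 ± 0.75 in wildtype (SD, n = 3). The differences were −0.12 for Snap29, 0.037 for Epg5 and 0.13 for Stx17. The median deviation of the 3 genes from the wildtype mean on the log2 scale was −0.31 for KO replicate 1, but 0.18 and 0.24 for the libraries of the merged KO pair.

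Disagreement between KO replicate 1 and the merged KO pair was not limited to fusion. Of the 39 genes, 15 had opposite signs when each side was set against the wildtype libraries, beside 40.96% of all tested genes. KO replicate 1 was the lowest of the 6 libraries for 12 genes (30.8%), as for 26.2% of all genes. Over all tested genes the deviation of KO libraries varied with transcript length. Genes were put into 4 groups of nearly equal size by length. On the log2 scale the longest group lay at −0.105 in KO replicate 1 but at 0.095 and 0.097 in the merged KO pair, and the shortest group at 0.13, −0.18 and −0.18. Deviations were taken from the mean of the wildtype libraries, so for each gene these libraries fall on both sides of 0. Wildtype replicate 2 had the signs of KO replicate 1, with 0.14 for the shortest and −0.090 for the longest group. Wildtype replicate 1 had those of the merged KO pair, with −0.111 and 0.080, and wildtype replicate 3 lay at −0.017 and 0.0062. Among the autophagy genes the 20 longer ones lay at 0.0048 in KO replicate 1 but at 0.13 and 0.12 in the merged KO pair, and the 19 shorter ones at 0.083, 0.037 and 0.013. The part of this length pattern in the differences between KO and wildtype was not tested.

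**Figure D5:**
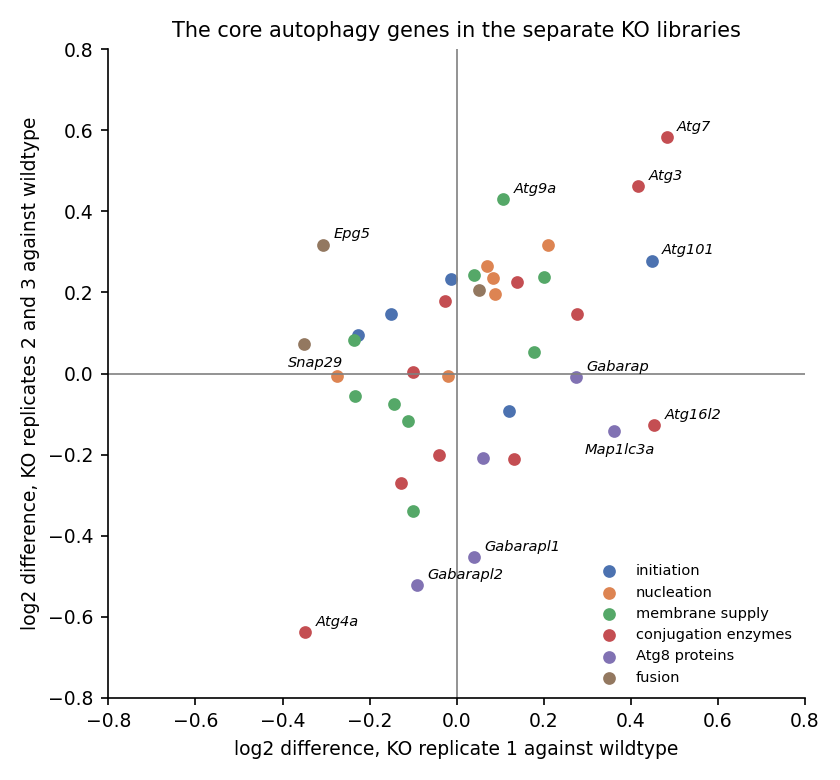
Log2 difference of each of the 39 genes in KO replicate 1 against wildtype (x axis) and in the merged KO pair against the same wildtype libraries (y axis), coloured by step. Genes in the upper left and lower right have opposite signs (15 of 39); Atg7 and Atg3 lie at the upper right and Atg4a at the lower left.

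Genes that act around the core machinery were measured as 4 further lists. The 11 cargo receptors, which tether cargo to Atg8 proteins, held 1 gene past an unadjusted p of 0.05, beside 13.7% of all genes. This was Ccpg1, a receptor for the endoplasmic reticulum, at 18.8, 23.2 and 25.5 FPKM in KO and 14.7, 14.3 and 14.4 FPKM in wildtype libraries. Every KO library exceeded every wildtype library, with a difference of 0.59 (SE 0.13), an adjusted p of 0.167 in edgeR and 0.036 with the 6 libraries as labelled. The next smallest p-values were those of Tex264 (−0.29), also a receptor for the endoplasmic reticulum, and of Optn (−0.21), a receptor for bacteria and mitochondria. The median of the list was −0.025.

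Of 22 upstream kinases, their subunits and brakes on autophagy, 21 were tested, and 1 was higher and 2 lower in KO at an unadjusted p under 0.05, with none called, beside 7.63% of all genes higher and 6.07% lower. Mlst8, a subunit of the mTOR complexes, was at 16.5, 16.5 and 16.3 FPKM in KO and 10.8, 13.2 and 12.5 FPKM in wildtype libraries (0.45, SE 0.15). Sesn1, an inhibitor of mTORC1 in amino acid sensing, was at 11.1, 9.58 and 9.94 FPKM in KO and 15.4, 12.9 and 15.2 FPKM in wildtype libraries (−0.45, SE 0.14). Rubcn, which binds the Uvrag complex and slows autophagosome maturation, was at 3.78, 3.997 and 3.996 FPKM in KO and 5.57, 4.55 and 5.68 FPKM in wildtype libraries (−0.42, SE 0.14). The FPKM ranges of these 3 genes did not overlap between the groups. They were picked by p in the same data, so this adds no support. In the whole list, ranges did not overlap for 1 gene higher in KO and 4 lower, beside 11.3% and 13.7% of all genes. The median of the list was −0.00047.

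Of 9 transcription factors of autophagy genes in the table, 1 was higher and 1 lower at an unadjusted p under 0.05, beside the same shares of 7.63% and 6.07% of all genes. Foxk1, known as a repressor of autophagy genes, was at 6.74, 8.59 and 8.78 FPKM in KO and 6.18, 4.61 and 6.02 FPKM in wildtype libraries (0.48, SE 0.16). Foxo1, known as an activator, was at 2.93, 2.54 and 2.24 FPKM in KO and 4.39, 3.36 and 4.18 FPKM in wildtype libraries (−0.55, SE 0.18). Tfeb, the activator of lysosomal and autophagy genes that binds E-boxes, was at 4.74, 5.35 and 4.90 FPKM in KO and 4.20, 4.05 and 3.94 FPKM in wildtype libraries. Its groups did not overlap, but the difference of 0.30 (SE 0.13) had an unadjusted p of 0.059 and an adjusted p of 0.392 in edgeR. Of the 14 genes that tether autophagosomes to lysosomes, none passed an unadjusted p of 0.05. The estimates of 12 were above 0, beside 7308 of the 15373 tested genes. The median was 0.123, beside −0.016 over all tested genes. Lamp2, a lysosomal membrane protein, was at 0.35 (SE 0.18), the adaptor Plekhm1 at 0.29 (SE 0.15) and the GTPase Rab7 at 0.27 (SE 0.14). For these 3, KO replicate 1 lay within the wildtype range. Wildtype libraries held 21.7 to 24.6 FPKM of Lamp2, for example, beside 22.8 FPKM in KO replicate 1 but 34.9 and 36.2 FPKM in the merged KO pair.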

How the data were processed

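RNA-seq of articular cartilage from 3 KO and 3 wildtype libraries was analysed. The identity of the deleted gene is left out. Per the labels, poly(A) RNA was made into strand-specific libraries with molecular identifiers. The submitters' processing notes name cutadapt 1.9, HISAT2 2.0.4, StringTie 1.3.4d, UMI-tools, DESeq2 and edgeR, without their roles. The authors deposited 1 table of 34709 genes with FPKM values, computed within each library, and counts. These were handled as estimated counts: the deposited values were whole, yet 4 occurred 6596 times, 3 only 4170 times and 5 only 2332 times. Positions follow GRCm38. All columns were matched to samples, with 0 unused.

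KO replicates 2 and 3 differed by 5.78 times Poisson noise (other pairs 23.7 to 85.4), which exceeded sampling noise. No other pair came near this, so their counts and FPKM were averaged into 1 sample, giving 2 KO and 3 wildtype samples. This replaced 3 against 3. The 15373 genes averaging 0.5 FPKM or more were tested with edgeR 4.0.16 (R 4.3.3; quasi-likelihood, TMM) and Benjamini-Hochberg adjustment over all of them. Alternatives used DESeq2 1.42.0, limma 3.58.1 on log2(FPKM + 1) or log2(FPKM + 0.1), other scalings and filters, counts divided by 4, a replicate block and each library left out.

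The genes, their steps and the other lists were chosen with earlier results of these data known. Every autophagy gene is named. FPKM in each library is given for autophagy genes past a threshold, the highest and lowest of each step and the Atg8 proteins, and up to 3 genes of each other list by smallest p are named. Other per-library values were chosen after they were seen. Promoter sequences are RefSeq's. The RefSeq promoter table used here held no entry under the names Wdr45b, Becn1, Atg16l1, Pik3c3, Map1lc3a, Epg5, Atg12 and Rb1cc1.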

Additional observations from a re-analysis of the deposited data

How the results depend on the processing

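Every autophagy gene had at least 208 counts in each library, and the alternatives covered scaling, filter, test, pseudocount and samples. Where 1 KO sample remained, it was assumed to vary like the wildtype samples. Atg3, Atg7 and Atg4a kept their direction under all 18 alternatives, Atg3 from 0.35 to 0.48, Atg7 from 0.45 to 0.58 and Atg4a from −0.64 to −0.35 on the log2 scale, with adjusted p of 0.00081 to 0.528, 3.2e-05 to 0.487 and 0.0021 to 0.548. Of 692 member values under alternatives, 646 kept direction and call, 8 gained a call and 38 changed sign, in 17 members, each within 0.19 of 0 in the report; the cause was not tested. With a minimum of 5 FPKM only 29 of the 39 were tested.

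Autophagy genes called at an adjusted p under 0.05, 0 in the report, were 3 with the 6 libraries as labelled, 2 with DESeq2 and 3 with DESeq2 on the 6 libraries, an alternative chosen after seeing the data. Past an unadjusted p of 0.05 they were 3 in the report, 8 (6 higher, 2 lower) with the 6 libraries, where 22.2% of all genes passed, 8 (6 higher, 2 lower) with DESeq2 on them (24.1% of all genes), and 3 to 6 (1 to 3 lower) with 1 library left out, 6 being without KO replicate 1 (20.7% of all genes). All genes called, 0 in the report (13.7% at an unadjusted p under 0.05), were 570 with the 6 libraries, 879 with DESeq2, 2118 with DESeq2 on the 6 libraries, 21 with no filter, 9 without the merged KO pair, and 0 to 352 with 1 library left out, 352 being without KO replicate 1. KO replicates 1, 2 and 3 did not deviate together with wildtype replicates of the same number (correlations of −0.145, −0.108 and −0.058), so the numbers were not taken as pairs. With a replicate block on the 6 libraries, 0 autophagy genes and 0 of all genes were called (18.3% at an unadjusted p under 0.05).

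The median over the autophagy genes, 0.037 in the report, was −0.001 and −0.005 with limma at pseudocounts of 1 and 0.1, 0.081 with no filter, 0.066 with a minimum of 5 FPKM, 0.065 with DESeq2 on the 6 libraries, and −0.008 (without wildtype replicate 2) to 0.079 (without wildtype replicate 3) with 1 library left out. With 1 library left out, initiation ran from 0.002 to 0.148, nucleation from 0.029 to 0.215, membrane supply from −0.078 to 0.054, the conjugation enzymes from 0.004 to 0.132, fusion from −0.050 to 0.206 and the Atg8 proteins from −0.209 to −0.003. Without KO replicate 1, initiation, nucleation, membrane supply and fusion were highest, and the conjugation enzymes and Atg8 proteins lowest. Membrane supply was 0.070 with a minimum of 5 FPKM. Without the merged KO pair, the Atg8 proteins were 0.062 and fusion −0.308.

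Members whose sign changed had these log2 differences under the alternatives concerned. Ulk2 was −0.021 with the 6 libraries and with the replicate block, −0.005 and −0.005 with limma at either pseudocount, −0.033 with a minimum of 5 FPKM and −0.011 with DESeq2 on the 6 libraries, where Ulk1 was 0.005. With limma at pseudocounts of 1 and 0.1, Rb1cc1 was −0.016 and −0.022, and Epg5 −0.001 and −0.009. With no filter Becn1 was 0.021 and Atg10 0.001, and with quantile normalization Atg10 was 0.040. Without the merged KO pair, Rb1cc1 was −0.150, Atg13 −0.013, Atg10 0.132, Atg12 −0.028, Map1lc3b 0.062, Gabarapl1 0.040 and Epg5 −0.308. With 1 library left out, the ranges were −0.144 to 0.095 for Ulk1, −0.093 to 0.083 for Ulk2, −0.029 to 0.148 for Rb1cc1, −0.049 to 0.018 for Becn1, −0.008 to 0.276 for Pik3r4, −0.115 to 0.082 for Atg2b, −0.211 to 0.128 for Atg10, −0.095 to 0.004 for Atg16l1, −0.127 to 0.244 for Atg16l2, −0.141 to 0.200 for Map1lc3a, −0.008 to 0.196 for Gabarap, −0.050 to 0.318 for Epg5 and −0.152 to 0.074 for Snap29.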
